A study of Danio rerio with 3 samples.

Results

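The Fos, Jun and Atf3 genes were taken as every mRNA entry of the deposited table whose symbol begins with fos, jun or atf3, and 9 of its 19824 mRNA entries met this rule. They were fos, fosb, fosl1 and fosl2, jun, junb, junbl and jund, and atf3. The family was chosen by its values in the larvae given the higher dose against those given vehicle, so its values in that comparison are given as a description and no test of them is used as support. BDE47 is 2,2',4,4'-tetrabromodiphenyl ether, a brominated flame retardant. Whole Tuebingen larvae were exposed from the first hours after fertilization and collected at 6 dpf. The exposed groups received BDE47 at 5 μg/L (the low dose) or at 500 μg/L (the high dose), both dissolved in DMSO. Another group received the DMSO vehicle alone. Larvae were pooled within each group and sequenced once, giving the 3 libraries used here, with no replicate.

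Fos and Jun proteins carry a basic leucine zipper (bZIP), through which they pair and bind DNA as the transcription factor AP-1. Jun proteins can pair with one another, whereas Fos proteins need a partner such as Jun. Several of these genes are classical immediate early genes, transcribed within minutes of growth factor, cytokine or stress signals that reach them through mitogen-activated protein kinases (MAPK). Atf3 is a related bZIP protein of the ATF/CREB family that is induced by many kinds of stress and can pair with Jun. Zebrafish keep duplicated copies of several of these genes, and the RefSeq table gives the current symbols fosab for fos, fosl1a for fosl1, junba for junb and junbb for junbl.

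Values are TMM-normalized counts, that is, reads on a gene model scaled per library, and the reads behind each of them were recovered. The fold change (FC) is the ratio of 2 normalized counts. Its 95% CI is an exact Clopper-Pearson interval on the reads and covers counting error only, without the spread that replicate pools would show. A gene was called higher or lower at an FC of 2 or more in that direction, provided that either library held 10 or more normalized counts. Normalized counts are not divided by transcript length, so they are compared between libraries and not between genes. Named mRNA genes took 34156825 reads in DMSO vehicle, 25125399 at the low dose and 22186369 at the high dose, and the 9 genes took 8908, 5134 and 28369 in the same order. Markers of skeletal muscle, epidermis, neurons and liver had reads in all 3 libraries.

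All 9 genes had their highest value at the high dose of BDE47. The gene fosl1, encoding the Fos-related antigen Fra-1 by its zebrafish name but matched by the table to human FOSL2, held 37.1 normalized counts in DMSO vehicle, 19.7 at the low dose and 1998 at the high dose. For fosb, which in mammals also yields the long-lived splice form ΔFosB, the values were 7.11, 14.2 and 367 normalized counts at the same rising doses. Both genes rested on few reads without the high dose, with 47 and 18 reads for fosl1 and 9 and 13 reads for fosb in DMSO vehicle and at the low dose.

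The stress-induced atf3 held 430.0 normalized counts in DMSO vehicle, 414 at the low dose and 7218 at the high dose. The prototype immediate early gene fos held 847 normalized counts in DMSO vehicle, 450.4 at the low dose and 5477 at the high dose. The values of fosl2, which encodes Fra-2, were 542, 507 and 1780 normalized counts in the same order of dose. Thus atf3 and fosl2 each differed little between DMSO vehicle and the low dose, while fos was lower at the low dose than in DMSO vehicle.

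Among the Jun genes, jun itself, whose product is the main partner of Fos, held 2980 normalized counts in DMSO vehicle, 2734 at the low dose and 9212 at the high dose. The JunB paralogs behaved alike in order of level, with 660.0, 389 and 2342 normalized counts for junb and 1343, 878 and 6436 for junbl at rising dose. For jund, in mammals the most constantly expressed Jun gene, the values were 194, 206 and 610 normalized counts. Both JunB genes were thus lowest at the low dose, whereas jund was not.

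**Figure D1:**
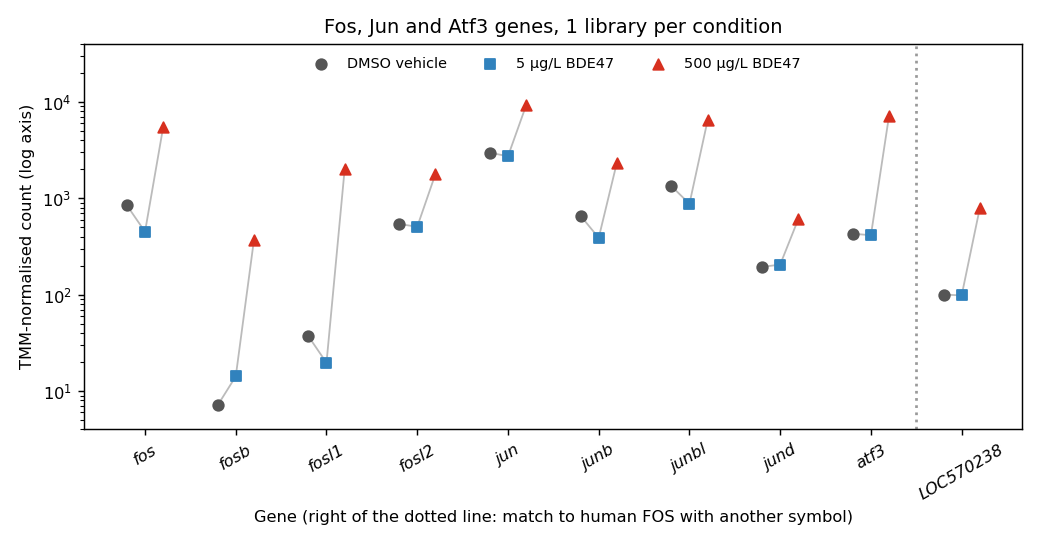
TMM-normalized counts (log axis) of the 9 genes and of LOC570238, a further match to human FOS, with 1 point per library for DMSO vehicle, the low dose and the high dose of BDE47. Every gene is highest at the high dose, and fos, fosl1, junb and junbl lie lower at the low dose than in DMSO vehicle; no error bar is drawn because each condition had 1 library, and heights are not comparable between genes.

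Against DMSO vehicle, 9 of the 9 genes were called higher at the high dose. Over all named mRNA genes tested, 7.40% were called higher in this comparison (1314 of 17758). This was the contrast in view when the family was chosen, so nothing is read from the count. The median log2 fold change (pseudocount 1) was 2.26 for the 9 genes and -0.02 for all genes tested. The largest FC was that of fosl1, at 53.8 (95% CI 40.2 to 73.5), and fosb followed at 51.6 (95% CI 26.8 to 114), which a pseudocount of 5 lowered to 30.7. The FC of atf3 was 16.8 (95% CI 15.4 to 18.4). These FCs placed fosl1, fosb and atf3 at ranks 6, 7 and 21 of 15267 genes that reached 50 normalized counts in either library.

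The rest of the family lay in a narrower range. The FC was 6.46 for fos (95% CI 6.04 to 6.92), 4.79 for junbl (95% CI 4.54 to 5.07) and 3.55 for junb (95% CI 3.27 to 3.86). It was 3.28 for fosl2 (95% CI 2.995 to 3.60), 3.14 for jund (95% CI 2.68 to 3.67) and 3.09 for jun (95% CI 2.97 to 3.22). In this order from fosl1 to jun, the FC of each gene was compared with the next by the 95% interval of their ratio, again for counting error only. The order was taken from these same FCs, so no ratio could fall below 1. These FCs are also what the family was chosen by, and the intervals are a description. The interval lay above 1 for fosb over atf3, atf3 over fos, fos over junbl and junbl over junb. It held 1 for fosl1 over fosb, at 1.04 (0.505 to 2.15), so the order of the largest pair was not resolved. It also held 1 for junb over fosl2, fosl2 over jund and jund over jun. The 4 Fos genes therefore spanned FCs of 3.28 to 53.8, against 3.09 to 4.79 for the 4 Jun genes, and no test of the difference between the subfamilies was made. The count depends on the call rule: with edgeR's exact test, where a biological coefficient of variation of 0.4 was assumed and not measured, it was 3 of the 9 genes (fosl1, fosb and atf3), with 0.101% of all genes called higher, and the same 3 between the doses, with 0.146%. The choice of the family favors these calls as well, since both comparisons use the high dose library, and nothing is read from them.

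**Figure D2:**
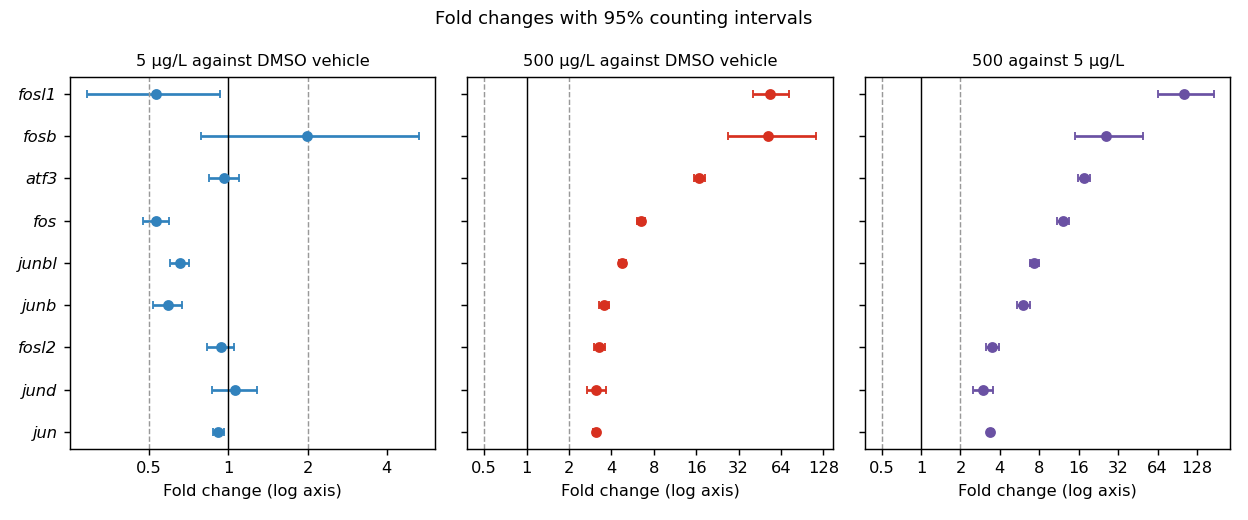
Fold change of each of the 9 genes (log axes) at the low dose against DMSO vehicle, at the high dose against DMSO vehicle, and at the high dose against the low dose; points are FCs, bars are 95% CIs for counting error and dashed lines mark 2-fold. At the high dose every interval lies above 2, from jund, whose interval begins at 2.68, to fosl1 at 53.8, while at the low dose no point passes 2-fold.

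The comparison of the low dose uses the same DMSO vehicle library. Against it, 0 of the 9 genes were called higher or lower at the low dose. Over all named mRNA genes tested in this comparison, 0.951% were called higher and 1.97% lower, from 17670 tested. The 9 genes had a median log2 fold change of -0.12, against 0.01 for all genes tested. With FCs between 0.530 and 0.654, fosl1 (95% CI 0.290 to 0.929), fos (95% CI 0.473 to 0.596), junb (95% CI 0.519 to 0.668) and junbl (95% CI 0.600 to 0.711) had counting intervals below 1 without reaching the 2-fold threshold. The interval of jun was also below 1, at an FC of 0.918 (95% CI 0.872 to 0.965). The share of all genes with an interval below 1 is not given here, so nothing particular to the family is read from these intervals. For atf3, fosl2 and jund the FCs were 0.964, 0.935 and 1.06, with intervals that held 1. The FC of fosb was 1.998, just short of the call, and on 13 reads at the low dose and 9 in DMSO vehicle its 95% CI ran from 0.790 to 5.30. At this depth a 2-fold difference of fosb between the low dose and DMSO vehicle was not resolved.

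**Figure D3:**
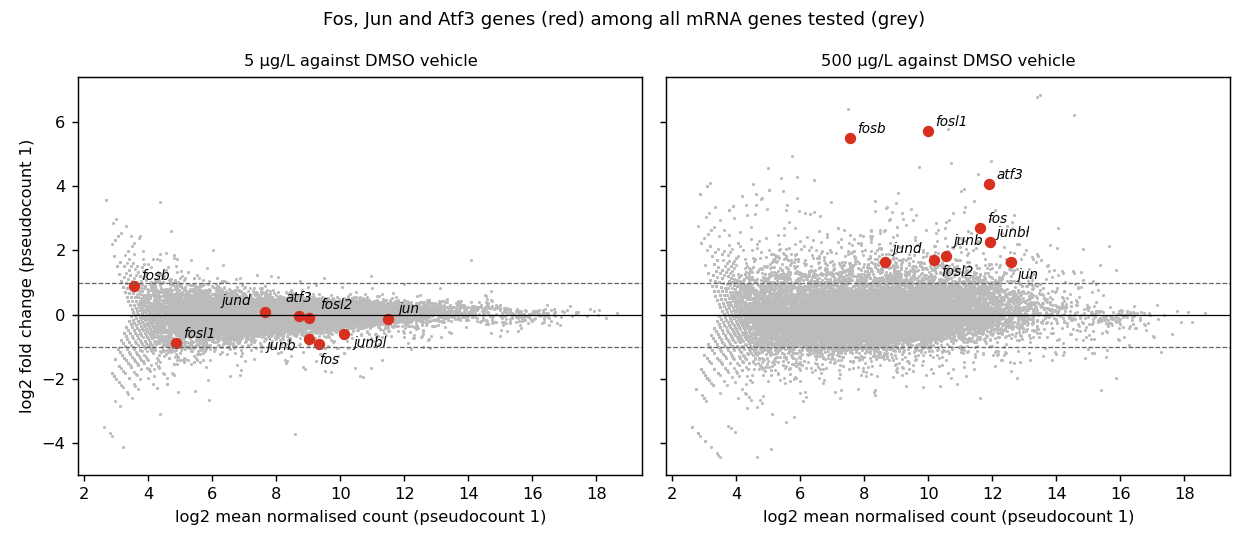
Log2 fold change against DMSO vehicle plotted on the log2 mean normalized count (pseudocount 1) for all mRNA genes tested (grey) and the 9 genes (red), at the low dose and at the high dose of BDE47; dashed lines mark 2-fold. The log2 fold changes of fos and junb at the low dose are -0.91 and -0.76, and those of fosl1, fosb and atf3 at the high dose are 5.71, 5.50 and 4.07.

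Markers of neutrophils and macrophages were also lower at the low dose. All 12 of the listed myeloid genes in the table had an FC below 1 at the low dose, from 0.320 for mfap4 to 0.901 for csf1ra. Of these, mfap4, cybb and LOC571584 (marco in the RefSeq table) were called lower, where 1.97% of all genes tested were called lower and 0.951% higher. Their summed normalized counts were 6197 at the low dose and 9622 in DMSO vehicle, and none of them was at 0 in any library. At the high dose the same sum was 10410, none of the 12 was called, and 9 had an FC above 1. The part of these cells in the values of fos, fosl1, junb and junbl was not tested. In whole larvae, fewer cells of a type and less RNA per cell cannot be told apart. At the high dose 6 of 10 liver markers were called lower and 1 higher, where 4.74% and 7.40% of all genes tested were. Their summed normalized counts were 129608 at the high dose and 285161 in DMSO vehicle. Of 10 epidermal markers, 1 was called higher (epcam, FC 2.17) and 2 lower (krt4, FC 0.445, and krt5, FC 0.478), and 5 had an FC above 1. The normalized counts of the 10 epidermal markers summed to 381530 at the high dose and 623234 in DMSO vehicle. At the low dose 1 of 10 liver markers (cp, FC 0.374) and 1 of 10 epidermal markers (agr2, FC 0.488) were called lower. None was called higher there, where 1.97% of all genes tested were called lower and 0.951% higher. An FC below 1 at the low dose was seen for 8 liver and 7 epidermal markers, and for 8615 of 17670 genes tested. Muscle and neuron markers had 0 of 11 and 0 of 10 genes called at either dose. Counts of 0 among so few genes lie near the shares of all genes, so nothing is read from them. At the high dose 8 of the 11 muscle and 9 of the 10 neuron markers had an FC below 1, where 9067 of 17758 genes tested did. Their median log2 fold changes were -0.11 and -0.20. The part of these tissues in the values of the 9 genes at either dose was not tested.

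The direct comparison of the doses does not use the DMSO vehicle library. At the high dose against the low dose, 9 of the 9 genes were called higher, where 7.39% of all genes tested were called higher and 4.10% lower. This count shares the high dose library with the comparison in view when the family was chosen, and nothing is read from it. The FC was 102 for fosl1 (95% CI 64.0 to 172), 25.8 for fosb (95% CI 14.9 to 49.1), 17.4 for atf3 and 12.2 for fos (95% CI 11.0 to 13.5). It was 7.33 for junbl and 6.02 for junb. The values of fosl2, jun and jund, at 3.51, 3.37 and 2.97, were the smallest, and the counting intervals of the ratios of neighbors in this order held 1. The interval for fosl1 over fosb lay above 1 here, at 3.93 (1.90 to 8.10), unlike that against DMSO vehicle. That for fosb over atf3 held 1 here, at 1.48 (0.843 to 2.61), also unlike that against DMSO vehicle. This order too was taken from the FCs themselves, so these intervals are a description.

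Ratios of reads between genes of 1 library do not depend on how the libraries were scaled, and their change between libraries does not depend on transcript length. These pairs were chosen after the values were seen. The reads of junbl per read of junb were 1.35 times as many at the high dose as in DMSO vehicle (95% interval 1.22 to 1.49, for counting error only). These values at the high dose are part of what the family was chosen by, and they are a description. Relative to jun, fos was 2.09 times (1.93 to 2.26) and atf3 5.43 times (4.93 to 5.98) as abundant at the high dose as in DMSO vehicle. Relative to fosl2, fosl1 was 16.4 times as abundant (12.1 to 22.2). At the low dose, fos relative to jun was 0.579 of its proportion in DMSO vehicle (0.512 to 0.656), whereas atf3 relative to jun was 1.05 (0.912 to 1.21).

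A further 3 mRNA entries that the table matches to human FOS or FOSL2 carry other symbols and are no members. LOC570238, fosaa in the RefSeq table and thus the paralog of fos, held 100.4 normalized counts in DMSO vehicle, 98.4 at the low dose and 792 at the high dose. Its FC at the high dose was 7.89 (95% CI 6.51 to 9.62), and at the low dose it was 0.980 (95% CI 0.740 to 1.29). The proportion of fos reads to LOC570238 reads at the low dose was 0.542 of that in DMSO vehicle (0.405 to 0.727). That interval covers counting error only, and the pair was chosen after its values were seen. At the high dose the proportion of fos to LOC570238 reads was 0.819 of that in DMSO vehicle (0.669 to 1.00), with an interval that held 1. The other entries, LOC793507 (fosl1b in the RefSeq table) and LOC100537479, had the same 8, 2 and 19 reads in DMSO vehicle, at the low dose and at the high dose. Whether this pair shares its reads is uncertain, and its FC at the high dose was 3.75 (95% CI 1.57 to 9.91).

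Genes of other bZIP proteins that can pair with Fos, Jun or Atf3, or share their sites, were also listed. The 9 genes were chosen by their values at the high dose, so their uniformity is not compared with that of this list. Of 22 such genes in the table, 8 were called higher and 2 lower at the high dose, where 7.40% and 4.74% of all genes tested were, with a median log2 fold change of 0.43. The largest FC was 6.41 (95% CI 4.76 to 8.74) for LOC100007087, batf2 in the RefSeq table, a BATF-type partner of Jun. It was 5.79 (95% CI 5.50 to 6.10) for cebpb, a regulator of inflammatory and acute phase genes, and 2.81 for the small Maf gene mafk. The value of cebpb at the low dose was 0.570 (95% CI 0.524 to 0.619), close to that of junb. The genes called lower were maf, listed as mafa in the RefSeq table, with an FC of 0.449 (95% CI 0.378 to 0.531), and nrl, which in mammals directs rod photoreceptor fate, with 0.497. None of the 22 was called in either direction at the low dose, where 0.951% of all genes tested were called higher and 1.97% lower.

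The MAPK pathway was described by its kinases and its phosphatases, and the difference between these lists was not tested. None of 22 MAPK and upstream kinase genes was called at the high dose, where 7.40% of all genes tested were called higher and 4.74% lower. Their median log2 fold change was -0.02, as it was for all genes tested, and their FCs ran from 0.536 for map2k6 to 1.48 for mapk12. Of 8 dual-specificity phosphatase genes, whose products switch MAPK off and several of which are themselves early response genes, 4 were called higher and none lower, where 7.40% and 4.74% of all genes tested were. They were dusp5 with an FC of 2.96 (95% CI 2.73 to 3.22), dusp4 with 2.87, dusp1 with 2.76 (95% CI 2.63 to 2.89) and LOC100330259, dusp8b in the RefSeq table, with 2.37, the last named after its value was seen. Serum response factor and its cofactors, which act on the promoters of fos and other early genes, had 0 of 7 genes called at the high dose. None of the genes in these 3 lists was called at the low dose, where 0.951% of all genes tested were called higher and 1.97% lower. A count of 0 among 7 genes, or in any of these lists at the low dose, lies near the shares of all genes, so nothing is read from it. No result about the kinases is read from their count of 0 among 22 genes at the high dose either.

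Of 29 genes in the table that were listed as AP-1 targets, 20 were called higher and 1 lower at the high dose, where 7.40% and 4.74% of all genes tested were, with a median log2 fold change of 1.54. This list, like the others here, was drawn up with earlier results of these data known, so its counts are a description. The largest FCs among those with at least 50 normalized counts were 26.6 (95% CI 22.6 to 31.5) for the collagenase mmp13a, 20.4 (95% CI 10.7 to 43.5) for LOC570404 and 14.5 for timp2b, an inhibitor of metalloproteinases. LOC570404 is il11a in the RefSeq table, a cytokine of the interleukin-6 family, and had 10 reads in DMSO vehicle, 0 at the low dose, where a count of 0 allows up to 3 reads, and 129 at the high dose. The gene called lower was LOC100330801, cd44b in the RefSeq table, with an FC of 0.486 (95% CI 0.232 to 0.948). It had 12 reads at the high dose and 39 in DMSO vehicle, in libraries of unlike depth. The heme oxygenase gene hmox1 had an FC of 0.523 (95% CI 0.481 to 0.569), short of the call. At the low dose, 0 of 27 tested targets were called higher and 2 lower, where 0.951% and 1.97% of all genes tested were. The FC was 0.180 for il1b (95% CI 0.0899 to 0.331) and 0.177 for LOC100330801 (95% CI 0.0545 to 0.450). These values rested on 12 reads for il1b and 5 for LOC100330801 at the low dose. Both genes were named here after their values were seen, as was hmox1.

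Of 37 other early response genes, 15 were called higher and 0 lower at the high dose, where 7.40% and 4.74% of all genes tested were, with a median log2 fold change of 0.84. The largest FCs were 9.50 (95% CI 8.89 to 10.1) for npas4, an activity-dependent neuronal factor, 6.25 (95% CI 5.63 to 6.95) for the orphan nuclear receptor gene nr4a1 and 5.84 for the stress gene gadd45aa. The rise was not shared by every gene: 30 of the 37 had an FC above 1 and 7 below 1. Over all genes tested, 8691 of 17758 had an FC above 1. Among the 7 were egr1 at 0.976 (95% CI 0.894 to 1.07) and nr4a2a at 0.605 (95% CI 0.502 to 0.726), both named after their values were seen. At the low dose 1 of the 37 was called lower and 0 higher, where 1.97% and 0.951% of all genes tested were. It was klf4a, with an FC of 0.449 (95% CI 0.277 to 0.707) on 26 reads, against 80 in DMSO vehicle. The median log2 fold change at the low dose was -0.12 for this list, for the AP-1 targets and for the 9 Fos, Jun and Atf3 genes. It was -0.11 for MAPK phosphatases, -0.17 for SRF and its cofactors, -0.07 for MAPK kinases and 0.02 for the other bZIP genes.

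**Figure D4:**
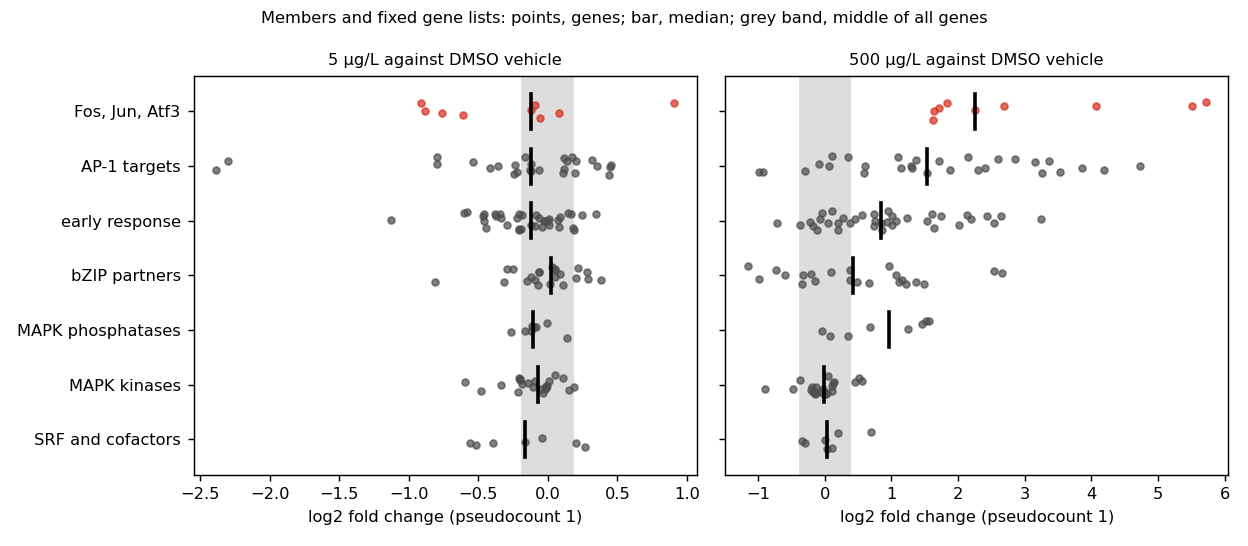
Log2 fold change against DMSO vehicle (pseudocount 1) at the low dose and at the high dose of BDE47 for the Fos, Jun and Atf3 genes (red) and the genes of 6 lists (dark grey), with 1 point per gene tested, a black bar at each median and a light band for the range between the quartiles of all genes tested. At the high dose the median is 2.26 for the 9 genes, 1.54 for AP-1 targets and 0.84 for early response genes, and near 0 for MAPK kinases and SRF and its cofactors.

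The genes whose pattern lay nearest to the family's were found by distance from its median in the plane of both log2 fold changes against DMSO vehicle, over 3 libraries and 15396 candidate genes. The 5 nearest were rtn4rl2a, a Nogo receptor family gene, dnaja, encoding an Hsp40 cochaperone, gpr81-4, a hydroxycarboxylic acid receptor gene, hbegfa, encoding a growth factor of the EGF family and also among the listed AP-1 targets, and hspb6, a small heat shock protein gene. Their FCs at the high dose ran from 4.44 for hbegfa to 5.24 for gpr81-4, and at the low dose from 0.848 for hspb6 to 0.922 for gpr81-4. The distances, 0.08 to 0.11 log2 units, are a description of these libraries. The median point joins the low dose value of jun with the high dose value of junbl, so it is not the pattern of any 1 member. The low dose FCs of fos, fosl1, junb and junbl, 0.530 to 0.654, lie below those of the 5 named genes.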

How the data were processed

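Reads were aligned by the authors to the zebrafish (Zv9) and human (hg19) genomes with BLAST and counted on gene models, and the authors deposited the TMM-normalized counts, a signal per gene. The counting tool, annotation version and strand handling were not given in the sources used here, so overlapping genes and near-identical copies may share reads. Dividing each library by its smallest value gave whole numbers for 100% of entries (tolerance 0.01 read), which were taken as reads. The column headed S was taken as DMSO vehicle from the paper's legend. Of the mRNA entries, 10 named only by a clone prefix were left out, leaving 19814. NCBI gene IDs of 14769 of these matched the RefSeq table (GRCz12tu), which gave current symbols, and lists were matched by deposited or current symbol.

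Named were all members, other matches to human FOS, JUN and ATF3 genes, up to 3 called genes per direction and list with at least 50 normalized counts, and the 5 nearest in pattern; list and marker genes named outside this rule were chosen after their values were seen. The members and lists were chosen with earlier results of these data known. Alternatives were library totals or a median log ratio of 0 for scaling, a pseudocount of 5, minima of 0 and 50, edgeR's exact test at a preset biological coefficient of variation (BCV) of 0.4, and Fisher's exact test. Neither test has a replicate, so they compare libraries and not conditions. Fisher's exact test with Benjamini-Hochberg adjustment and the 2-fold threshold called 2069 genes at 500 μg/L, 355 at 5 μg/L and 1810 between doses. Ratios of FCs had Wald intervals on the log scale. The scripts were tested on simulated data. Python 3.11.15, scipy 1.17.1, pandas 2.3.3, R 4.3.3 and edgeR 4.0.16 were used.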

Additional observations from a re-analysis of the deposited data

Results flagged for a closer look

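For 5 of the 9 genes the counting intervals lay on opposite sides of 1 at the 2 doses, below it at the low dose and above it at the high dose, each against the same DMSO vehicle library. The high dose side held for all 9 genes and was in view when the family was chosen, so nothing is read from it. The share of all genes with intervals on opposite sides of 1 is not given here. Nothing particular to the family is therefore read from the count of 5. The FC of fos was 0.532 at the low dose and 6.46 at the high dose, and that of fosl1 was 0.530 at the low dose and 53.8 at the high dose. The FC of junb was 0.590 at the low dose and 3.55 at the high dose, and that of junbl was 0.654 at the low dose and 4.79 at the high dose. For jun the FC was 0.918 at the low dose and 3.09 at the high dose. None of the 5 values at the low dose passed the 2-fold threshold. With 1 library per condition the difference in effect between the doses was not tested, and the calls between the doses compare 2 libraries and not 2 conditions.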

How the results depend on the processing

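With edgeR's exact test and an assumed BCV of 0.4, 3 of the 9 genes (fosl1, fosb and atf3) were called higher at 500 μg/L against DMSO vehicle and the same 3 against 5 μg/L, in place of 9, since that test allows for a spread between libraries that was assumed and not measured. Both comparisons use the high dose library, by whose values the family was chosen, which favors these calls too. It called 20 genes in all at 500 μg/L, against 2155 by fold change, 29 against 2035 between doses, and 0 against 516 at 5 μg/L, where Fisher's exact test called 355. At 5 μg/L the count of all genes called was 287 with a pseudocount of 5, 1622 with no minimum count and 126 with a minimum of 50 normalized counts, and between doses it was 3123 with no minimum. These settings left the counts for the 9 genes at 9, 0 and 9. With a pseudocount of 5 the FC of fosb at 500 μg/L was 30.7 in place of 51.6, and that of fosl1 was 47.5. No paired analysis was possible because each group had 1 library. Depth limits fosb most, with 9 reads in DMSO vehicle. Intervals and floors cover counting error only.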
